A study of Mus musculus with 20 samples.

Results

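Enzymes that break down amino acids and dispose of their nitrogen were followed across the livers of 20 mice. The list held 34 genes of the urea cycle, of nitrogen transfer and of aromatic, sulfur, branched-chain, proline, serine and lysine metabolism. A gene was measured where a probe set carried its symbol and no other in the platform annotation. By that rule 31 of the 34 genes had a probe set, with 43 probe sets in all, out of 17097 genes and 45037 probe sets in the series; Got1, Gls2 and Sds had none of that single symbol and were not analysed here.

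The mice were 11 weeks old F1 hybrids of C57BL6J and FVB, and 1 array was made per animal. Progeroid mice carried the Ercc1Δ/- genotype, with a Δ allele and a null allele of Ercc1, which encodes a subunit of a DNA repair endonuclease, and wild type littermates served as their controls. The 4 groups of 5 were progeroid mice on restricted food, progeroid mice on the control diet, wild type mice on restricted food and wild type mice on the control diet. All 4 groups ate the same AIN93G synthetic pellets. Restriction started at 7 weeks of age with 10% and reached 30% at 9 weeks. Wild type mice received 2.1 g of food per day on 30% restriction, against 3.0 g eaten on free feeding. The labels give neither the sex of the animals nor the hours between the last meal and sampling. Restricted animals were fed just before dark. The mutation was germline and so not limited to the liver.

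In mammals the liver carries most of the breakdown of amino acids. Aminotransferases move their nitrogen onto glutamate and aspartate, and the urea cycle, which begins in the mitochondria and ends in the cytosol of hepatocytes, turns ammonia and aspartate nitrogen into urea. The carbon skeletons feed glucose production, ketone bodies or oxidation. Transcription of many of these enzymes is known to follow protein intake, fasting, glucagon and glucocorticoids.

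Values are log2 levels as deposited, and each gene is read from its probe set with the highest mean. A difference of 1 on this scale is a doubling. A gene is said to rise or fall where the adjusted p of the limma fit over all 17097 genes was under 0.05 (Benjamini-Hochberg, two-sided). Each log2 fold change is given with its standard error (SE), and group levels are given with the standard deviation (SD, n = 5).

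Array medians lay between 4.17 and 4.21, arrays correlated between 0.979 and 0.996 and 0 pairs held identical values. Ercc1 stood at 4.80 ± 0.24 in restricted progeroid mice against 6.15 ± 0.12 in restricted wild type mice. On the control diet it stood at 5.30 ± 0.15 in progeroid mice against 6.54 ± 0.07 in wild type mice, so that the genotype labels fitted the arrays. It also differed with diet, by -0.51 in progeroid mice and by -0.39 in wild type mice. A dimmer Ercc1 probe set was lower in progeroid mice as well, at 3.37 on both diets against 4.74 and 4.97 in restricted and control-diet wild type mice. Other Ercc1 probe sets, with group means from 4.54 to 4.85, overlapped between the genotypes. The tissue label was checked on 8 hepatocyte markers, Alb, Apoa1 and Ttr among them, whose mean level lay between 13.76 and 13.89 in all 20 animals. These levels lie near the highest value on the arrays, 14.51, where a mean says little about the share of hepatocytes. The brightest listed genes, from Hpd at a mean of 13.39 to Bhmt at 13.64, lay close to this range, so their changes may be understated.

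On restriction 11 of the 31 genes rose in progeroid mice and 2 fell, where 6.94% of all genes rose and 5.07% fell. In wild type mice 13 rose and 2 fell, against 9.92% of all genes rising and 12.6% falling. All shares of all genes given here include dim genes. Of the 17097 genes 8219 had a mean level under 5, against 1 of the 31 listed genes. These shares are therefore not those of genes as bright as the list. In bulk liver RNA, fewer cells of a type and less RNA per cell cannot be told apart. The median log2 change over the list was 0.12 in progeroid mice and 0.15 in wild type mice, against -0.01 and -0.03 over all genes. Across genotypes on restricted food, 2 genes were higher and 7 lower in progeroid mice, where 11.8% of all genes were higher and 5.44% lower. On the control diet 1 gene was higher and 2 were lower, against 6.7% and 4.32% of all genes; this share is close to the background. Taking both directions together, 13 of 31 genes changed with diet in progeroid mice (12% of all genes) and 15 in wild type mice (22.5%), and 9 differed by genotype on restricted food (17.2%) and 3 on the control diet (11%). In all, 20 of the 31 genes passed the test in at least 1 of these comparisons and 11 passed in none.

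The groups of 5 animals were fully apart in many of these genes. On restriction 8 genes lay higher and 3 lower without overlap in progeroid mice, where 5.19% and 3.78% of all genes did, and 13 lay higher and 3 lower in wild type mice, where 6.9% and 8.77% did. Between genotypes 2 lay higher and 4 lower in progeroid mice on restricted food, against 7.95% and 3.94% of all genes, and 0 higher and 2 lower on the control diet, against 5.4% and 3.95%.

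The 8 genes that rose on restriction in both genotypes were Ass1, Asl, Arg1, Gpt, Gpt2, Prodh, Mat1a and Ahcy, and the 2 that fell in both were Kmo and Kynu. Of all genes, 3.93% rose in both and 3.14% fell in both. Tat, Bcat2 and Bckdha passed the test in progeroid mice only, and Cps1, Hpd, Gnmt, Bckdhb and Aass in wild type mice only, which does not show that their responses differed. The difference between the diet effects, tested for each gene as an interaction, passed for 0 of 31 genes with limma, where 1.4% of all genes passed, 1.03% upwards and 0.374% downwards. At an unadjusted p under 0.05, 4 of the 31 had such a difference, as did 14.2% of all genes.

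The diet effects in the 2 genotypes come from separate animals. Across the 31 genes they correlated with r = 0.891, against 0.701 across all genes. The same sign was seen in 28 of 31 genes (90.3%), against 67.3% of all genes. Genes are not independent replicates, and the values over all genes include the many dim genes. Among the 10 genes called the same way in both genotypes the change was smaller in progeroid mice in 10 of 10, and among all 1208 such genes in 67.6%. Some of these gaps were small, as for Kynu (-0.56 and -0.57) and Arg1 (0.30 in both). The 3 genes called in progeroid mice only changed more there, and the 5 called in wild type mice only changed more in wild type mice. Each gene had the same SE in both diet effects, so this follows largely from the calls and is no separate observation. The difference between the diet effects passed for 0 of the 31 genes.

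**Figure D1:**
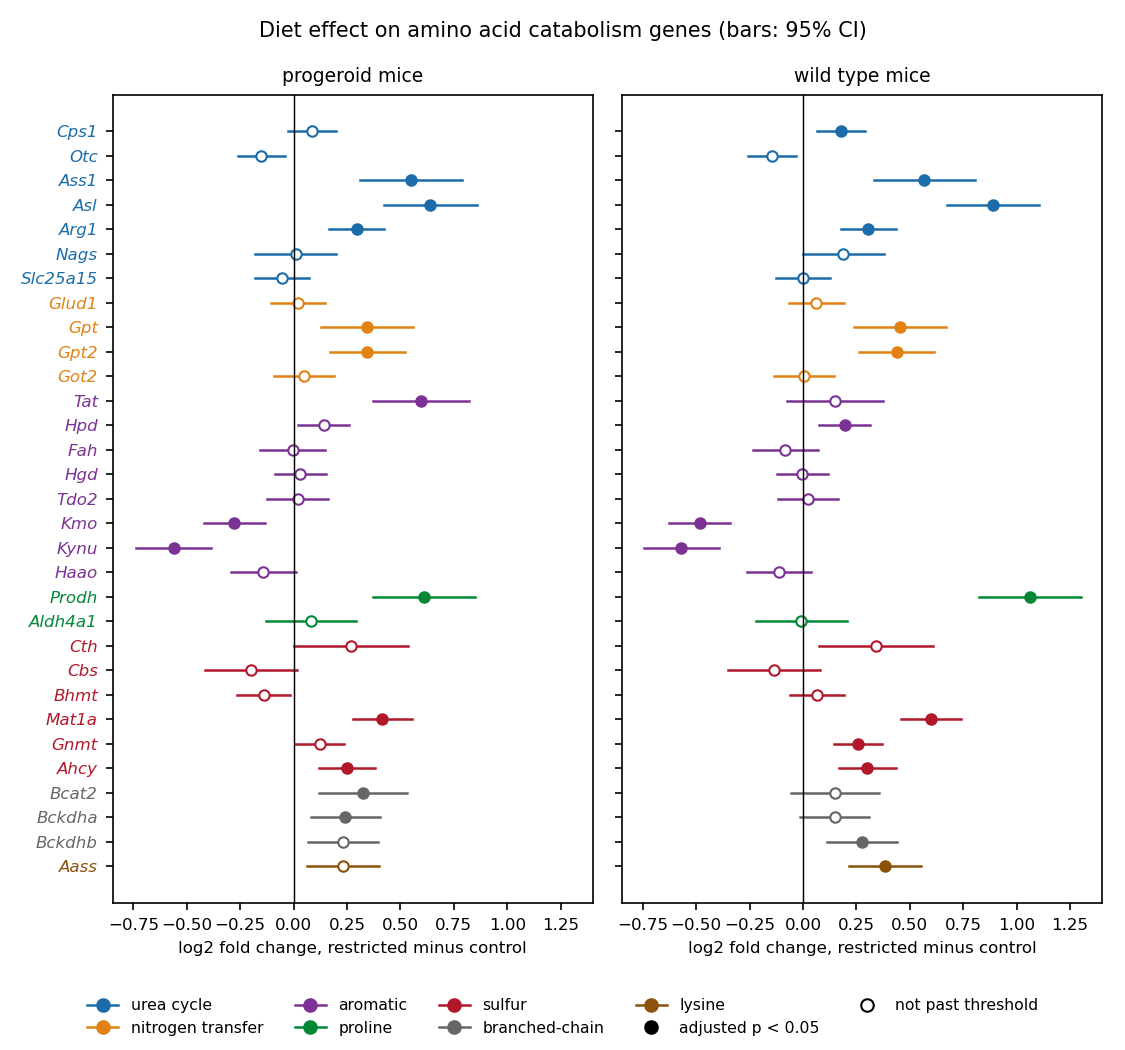
Log2 fold change on restriction (restricted minus control) of the 31 genes in progeroid mice, left, and wild type mice, right. Bars are 95% confidence intervals, filled points passed the test, and colours mark the pathway. Asl, Ass1, Prodh and Mat1a lie far to the right and Kynu and Kmo to the left in both panels; Tat is at 0.59 in progeroid mice and at 0.15 in wild type mice.

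Promoter sequences of 250 bases before the gene's start (RefSeq, GRCm38.p6) were at hand for 25 of the list's genes and for 14 of the 20 that passed a test. They are printed for genes whose levels the results turn on: Ass1 and Prodh, which rose on restriction in both genotypes, Aass, which rose in wild type mice, and Tat, which was lower in progeroid mice. Capitals mark motif matches on either strand.
The windows are chr2:31470020-31470269 for Ass1 (plus strand), chr16:18089191-18089440 for Prodh (minus strand), chr6:23132987-23133236 for Aass (minus strand) and chr8:109990186-109990435 for Tat (plus strand), each read 5′ to 3′ along the gene.
Ass1: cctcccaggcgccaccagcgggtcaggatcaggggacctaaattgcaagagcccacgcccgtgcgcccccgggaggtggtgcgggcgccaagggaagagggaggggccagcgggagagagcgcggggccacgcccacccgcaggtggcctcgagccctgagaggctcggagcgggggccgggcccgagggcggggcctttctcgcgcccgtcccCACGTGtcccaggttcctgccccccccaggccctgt
Prodh: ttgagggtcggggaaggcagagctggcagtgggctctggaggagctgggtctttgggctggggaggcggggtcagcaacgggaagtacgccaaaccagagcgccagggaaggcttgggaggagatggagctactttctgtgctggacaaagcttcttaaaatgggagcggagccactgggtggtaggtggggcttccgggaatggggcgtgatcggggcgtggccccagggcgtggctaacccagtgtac
Aass: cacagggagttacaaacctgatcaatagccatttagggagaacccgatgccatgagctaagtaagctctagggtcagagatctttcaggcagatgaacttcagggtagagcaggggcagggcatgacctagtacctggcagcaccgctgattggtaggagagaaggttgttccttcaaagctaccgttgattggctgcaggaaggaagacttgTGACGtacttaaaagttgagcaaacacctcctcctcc
Tat: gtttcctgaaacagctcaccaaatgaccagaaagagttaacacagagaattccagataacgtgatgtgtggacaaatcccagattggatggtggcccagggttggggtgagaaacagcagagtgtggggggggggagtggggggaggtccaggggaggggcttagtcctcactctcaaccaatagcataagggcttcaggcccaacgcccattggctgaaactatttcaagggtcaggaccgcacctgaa
Of the motifs searched in the 14 genes, CACGTG (E-box) was found in Ass1, 36 bases before the start, and in 6.02% of all 32851 windows. TGACG, the partial cAMP response element, was found in Aass, 37 bases before the start, and in 17.8% of windows. AGAACA, an arm of the glucocorticoid response element, was found in Bckdhb and Haao and in 16.1% of windows. The 14 promoters held no TGACGTCA (the whole cAMP response element, 1.55% of windows), TTGCGCAA (C/EBP, 0.164%), CAAAGTCCA (HNF4A, 0.384%) or TGATGNAAT (amino acid response element, 0.816%). TGACG lies within TGACGTCA. A match describes letters in a window and nothing more.

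Of 7 urea cycle genes 3 rose on restriction in progeroid mice and 4 in wild type mice, against 6.94% and 9.92% of all genes. The cytosolic enzymes Ass1, Asl and Arg1 rose in both. Asl, which splits argininosuccinate into arginine and fumarate, stood at 11.74, 11.75, 11.58, 11.31 and 11.28 in restricted progeroid mice, against 10.91, 11.04, 10.78, 10.79 and 10.96 in control-diet progeroid mice. Its wild type levels were 11.93, 11.85, 12.20, 12.12 and 11.93 on restriction, against 11.01, 11.16, 10.94, 11.40 and 11.07 on the control diet. Restricted animals lay above all control-diet animals of their own genotype. Asl rose 1.56-fold in progeroid mice (0.64 ± 0.10 SE; limma adjusted p = 0.000435) and 1.85-fold in wild type mice (0.89 ± 0.10; adjusted p = 3.54e-06). On restricted food it was also 1.39-fold lower in progeroid mice than in wild type mice (-0.47 ± 0.10; adjusted p = 0.00292), and those groups did not overlap.

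Ass1, whose window held CACGTG as did 6.02% of all windows, joins citrulline to aspartate in the step before Asl. It stood at 12.25, 12.20, 11.93, 11.91 and 11.89 in restricted progeroid mice, against 11.25, 11.57, 11.65, 11.65 and 11.31 in control-diet progeroid mice. Wild type animals had 12.11, 12.09, 12.49, 12.36 and 12.31 on restriction, against 11.78, 11.56, 11.40, 11.87 and 11.91 on the control diet. Again the diet groups did not overlap in either genotype. Its rises were 1.46-fold in progeroid mice (0.55 ± 0.11 SE; limma adjusted p = 0.00321) and 1.48-fold in wild type mice (0.57 ± 0.11; adjusted p = 0.00106). A second, dimmer probe set of Ass1 rose as well, by 1.08 in progeroid mice and by 0.92 in wild type mice on the log2 scale.

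Arg1, the arginase that releases urea, rose 1.23-fold in progeroid mice (13.48 ± 0.11 against 13.18 ± 0.09 on the control diet; adjusted p = 0.00361) and 1.24-fold in wild type mice (13.62 ± 0.06 against 13.31 ± 0.08; adjusted p = 0.00124, both limma). Its diet groups were apart in wild type mice and overlapped slightly in progeroid mice. Cps1, the mitochondrial enzyme that fixes ammonia, stood at 13.66 ± 0.05 in restricted and 13.57 ± 0.09 in control-diet progeroid mice and did not pass (adjusted p = 0.336). Among wild type mice it rose 1.13-fold, to 13.67 ± 0.08 against 13.49 ± 0.03 (adjusted p = 0.0197); without wild type animal 422 or 423 the adjusted p was 0.0527 and 0.0572.

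Of the mitochondrial steps beside Cps1, Otc and Slc25a15 did not pass on their brightest probe sets. Otc, which makes citrulline, had 12.84 ± 0.09 in restricted and 13.00 ± 0.05 in control-diet progeroid mice, and 12.76 ± 0.04 in restricted against 12.91 ± 0.07 in control-diet wild type mice. In both genotypes its diet groups did not overlap, yet the differences of -0.15 and -0.14 did not pass (limma adjusted p = 0.0741 and 0.0581). With limma's trended and robust variance Otc fell in both (adjusted p = 0.0425 and 0.0320). A second Otc probe set of lower signal fell by 0.36 in progeroid mice (adjusted p = 0.0310, over all probe sets) and differed by 0.17 in wild type mice, so the probe sets of this gene disagree for wild type mice. That probe set was also lower in progeroid than in wild type mice on restricted food, at -0.35 (adjusted p = 0.0264). Slc25a15, the ornithine carrier of the inner membrane, had differences between -0.05 and 0.05 in the 4 pairwise comparisons.

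Nags makes acetylglutamate, the activator that Cps1 needs. It was 1.21-fold lower in progeroid than in wild type mice on restricted food, at 9.18 ± 0.18 against 9.45 ± 0.13 (-0.28 ± 0.09 SE; limma adjusted p = 0.0418). Leaving out any 1 of 7 animals (progeroid 365, 366 or 369, or wild type 422, 423, 424 or 425) raised its adjusted p to between 0.0559 and 0.128.

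Of 4 genes of nitrogen transfer 2 rose on restriction in each genotype, the alanine aminotransferases Gpt and Gpt2. Among all genes 6.94% rose in progeroid mice and 9.92% in wild type mice. Gpt, the cytosolic form, stood at 12.18, 12.14, 12.03, 12.14 and 12.03 in restricted progeroid mice, against 11.54, 11.51, 12.02, 11.82 and 11.92 in control-diet progeroid mice. Wild type animals had 11.72, 11.64, 12.00, 11.89 and 11.79 on restriction, against 11.22, 11.56, 11.15, 11.58 and 11.26 on the control diet. The diet groups were apart in both genotypes, in progeroid mice only just. Its rise was 1.27-fold in progeroid mice (0.34 ± 0.10 SE; limma adjusted p = 0.0346) and 1.37-fold in wild type mice (0.45 ± 0.10; adjusted p = 0.00312). The progeroid call was lost without control-diet animal 321 or 323 (adjusted p = 0.0968 and 0.105) or restricted animal 362, 365 or 368 (adjusted p = 0.0739, 0.0690 and 0.0618).

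Gpt was also the one gene of the list that was higher in progeroid mice on the control diet, by 1.33-fold (0.41 ± 0.10 SE; limma adjusted p = 0.0125). With the difference between the 3' and 5' control probe sets of Gapdh as a covariate, the log2 fold change was 0.38 and the adjusted p 0.0602. That difference, a sign of RNA integrity, was 0.93 ± 0.28 in control-diet progeroid mice and 0.66 ± 0.06 in control-diet wild type mice (exact permutation p = 0.0476, 0.133 adjusted over 56 comparisons). On restricted food Gpt differed by 0.30 ± 0.10 with no overlap between genotypes (adjusted p = 0.0522).

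Gpt2, the mitochondrial alanine aminotransferase, rose 1.27-fold in progeroid mice (11.30 ± 0.21 against 10.95 ± 0.13 on the control diet; limma adjusted p = 0.0107) and 1.35-fold in wild type mice (11.45 ± 0.04 against 11.01 ± 0.10; adjusted p = 0.000768). Of its 3 probe sets, 2 rose in each genotype and the other had 0.19 and 0.33. Glud1, glutamate dehydrogenase, and Got2, mitochondrial aspartate aminotransferase, had differences between 0.00 and 0.10 in the 4 pairwise comparisons; a dimmer Got2 probe set rose by 0.48 on restriction in wild type mice.

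**Figure D2:**
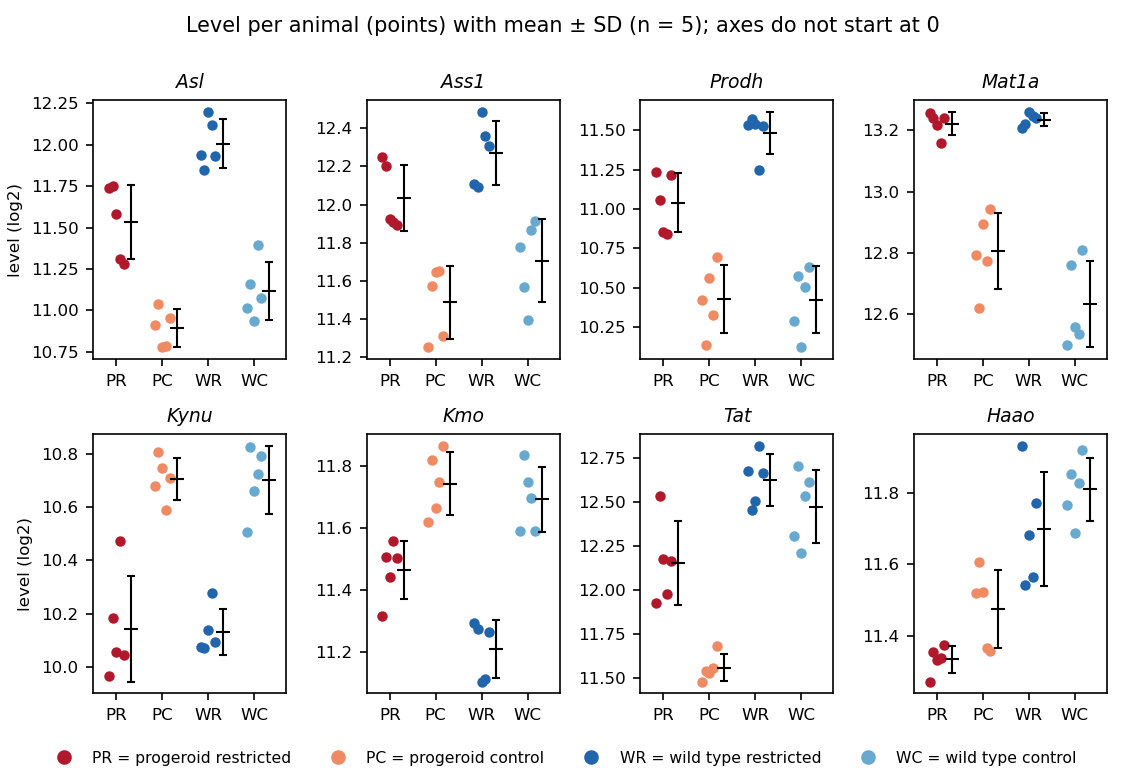
Log2 level per animal of 8 genes in the 4 groups of 5 (PR and PC, progeroid mice on restricted food and on the control diet; WR and WC, wild type mice on restricted food and on the control diet), with mean ± SD; axes do not start at 0. Asl, Ass1, Prodh and Mat1a are higher and Kynu and Kmo lower in restricted than in control-diet animals of either genotype, while Tat is lowest in control-diet progeroid mice and Haao is lower in progeroid mice on both diets.

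Prodh, the first enzyme of proline oxidation, had the largest rise of the 31 genes in wild type mice and the second largest, after Asl, in progeroid mice. It stood at 11.24, 11.06, 10.86, 10.84 and 11.22 in restricted progeroid mice, against 10.42, 10.14, 10.56, 10.33 and 10.70 in control-diet progeroid mice. Wild type animals had 11.54, 11.57, 11.54, 11.25 and 11.53 on restriction, against 10.29, 10.58, 10.12, 10.50 and 10.63 on the control diet. No restricted animal overlapped with the control-diet animals of its genotype. The rise was 1.53-fold in progeroid mice (0.61 ± 0.11 SE; limma adjusted p = 0.00147) and 2.09-fold in wild type mice (1.06 ± 0.11; adjusted p = 1.55e-06). The difference between the diet effects was -0.45 ± 0.16, with a 95% interval of -0.79 to -0.11, and did not pass (adjusted p = 0.191).

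Between the control-diet groups Prodh differed by 0.00 ± 0.11, with a 95% interval of -0.23 to 0.24. On restricted food it was 1.36-fold lower in progeroid mice, whose levels all lay below those of wild type mice (-0.44 ± 0.11 SE; limma adjusted p = 0.00961). Aldh4a1, which takes the product of Prodh on to glutamate, had differences between -0.01 and 0.12, and no comparison passed.

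Of 6 genes of sulfur metabolism 2 rose on restriction in progeroid mice and 3 in wild type mice, against 6.94% and 9.92% of all genes. Mat1a, the liver enzyme that makes S-adenosylmethionine, stood at 13.26, 13.24, 13.22, 13.16 and 13.24 in restricted progeroid mice, against 12.79, 12.62, 12.89, 12.77 and 12.94 in control-diet progeroid mice. Its wild type levels were 13.21, 13.22, 13.26, 13.25 and 13.24 on restriction, against 12.50, 12.76, 12.56, 12.54 and 12.81 on the control diet. The restricted animals of both genotypes lay within a narrow band above all control-diet animals. Mat1a rose 1.33-fold in progeroid mice (0.42 ± 0.07 SE; limma adjusted p = 0.000431) and 1.52-fold in wild type mice (0.60 ± 0.07; adjusted p = 2.21e-06).

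Ahcy, which splits S-adenosylhomocysteine, rose 1.19-fold in progeroid mice (13.24 ± 0.09 against 12.99 ± 0.09 on the control diet; limma adjusted p = 0.0133) and 1.23-fold in wild type mice (13.35 ± 0.09 against 13.05 ± 0.08; adjusted p = 0.00167), with no overlap of diet groups in either genotype. Gnmt, which consumes S-adenosylmethionine by methylating glycine, had 13.51 ± 0.08 on restricted food and 13.39 ± 0.04 on the control diet in progeroid mice (0.12 ± 0.05; adjusted p = 0.165). It rose in wild type mice, to 13.75 ± 0.07 against 13.49 ± 0.07 (0.26 ± 0.05; adjusted p = 0.00167). It was 1.18-fold lower in progeroid than in wild type mice on restricted food (adjusted p = 0.00380), without overlap. The later steps of homocysteine metabolism did not pass in any comparison: Cbs and Cth, which carry its sulfur to cysteine, and Bhmt, which returns it to methionine with betaine. Cth had the widest margins of these, with changes on restriction of 0.27 ± 0.13 in progeroid mice and 0.34 ± 0.13 in wild type mice, neither of which passed. The wild type rise of Cth did pass in some other limma fits. Its adjusted p was 0.0429 without dim genes, 0.0443 with only the groups of the contrast and 0.0374 with array weights. It also passed without progeroid animal 327 or 362 or wild type animal 404 or 421.

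Of 8 aromatic genes 1 rose and 2 fell on restriction in each genotype. Among all genes 6.94% rose and 5.07% fell in progeroid mice, and 9.92% rose and 12.6% fell in wild type mice. These counts are too small to set apart from those shares. On the tryptophan side, Kynu, the kynureninase that makes anthranilates, fell on restriction. It stood at 9.97, 10.18, 10.05, 10.47 and 10.04 in restricted progeroid mice, against 10.68, 10.80, 10.75, 10.59 and 10.71 in control-diet progeroid mice. Wild type animals had 10.08, 10.07, 10.14, 10.28 and 10.09 on restriction, against 10.51, 10.83, 10.66, 10.73 and 10.79 on the control diet. Every restricted animal was below every control-diet animal. Kynu was 1.48-fold lower in both genotypes (-0.56 ± 0.08 SE in progeroid mice, limma adjusted p = 0.000212; -0.57 ± 0.08 in wild type mice, adjusted p = 5.47e-05). A second, dimmer Kynu probe set fell in both genotypes as well.

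Kmo, which hydroxylates kynurenine ahead of Kynu, stood at 11.31, 11.51, 11.44, 11.56 and 11.50 in restricted progeroid mice, against 11.62, 11.82, 11.67, 11.75 and 11.86 in control-diet progeroid mice. Its wild type levels were 11.29, 11.27, 11.10, 11.11 and 11.26 on restriction, against 11.59, 11.84, 11.75, 11.70 and 11.59 on the control diet. The diet groups did not overlap in either genotype. Kmo fell 1.21-fold in progeroid mice (-0.28 ± 0.07 SE; limma adjusted p = 0.0108) and 1.40-fold in wild type mice (-0.48 ± 0.07; adjusted p = 3.46e-05), and on restricted food it was 1.19-fold higher in progeroid mice (adjusted p = 0.0120).

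Haao, which opens the ring of hydroxyanthranilate on the way to NAD, was lower in progeroid mice on both diets, while its diet effects did not pass in either genotype (adjusted p = 0.236 and 0.307). It stood at 11.27, 11.35, 11.33, 11.34 and 11.37 in restricted progeroid mice, against 11.93, 11.54, 11.68, 11.57 and 11.77 in restricted wild type mice. On the control diet it stood at 11.52, 11.61, 11.52, 11.37 and 11.36 in progeroid mice, against 11.77, 11.85, 11.69, 11.83 and 11.92 in wild type mice. Progeroid levels lay below all wild type levels on either diet. The falls were 1.29-fold on restricted food (-0.37 ± 0.07 SE; limma adjusted p = 0.00133) and 1.26-fold on the control diet (-0.34 ± 0.07; adjusted p = 0.00392). Tdo2, the dioxygenase that starts tryptophan breakdown, had differences between -0.01 and 0.02 on a bright probe set with a mean of 13.41. A second Tdo2 probe set, with a mean of 12.36, had -0.24 in progeroid mice and -0.25 in wild type mice on restriction and did not pass.

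On the tyrosine side, Tat, the aminotransferase that begins the pathway, had the largest genotype effect of the list on the control diet; on restricted food the change of Asl was as large. On restricted food it stood at 11.93, 12.53, 12.18, 11.98 and 12.16 in progeroid mice, against 12.68, 12.45, 12.50, 12.82 and 12.66 in wild type mice. On the control diet it stood at 11.48, 11.54, 11.53, 11.56 and 11.69 in progeroid mice, against 12.31, 12.70, 12.21, 12.53 and 12.61 in wild type mice. The genotypes overlapped through 1 progeroid animal on restricted food and were fully apart on the control diet. Tat was 1.38-fold lower in progeroid mice on restricted food (-0.47 ± 0.11 SE; limma adjusted p = 0.00429) and 1.88-fold lower on the control diet (-0.91 ± 0.11; adjusted p = 1.02e-05).

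Restriction raised Tat 1.51-fold in progeroid mice (0.59 ± 0.11 SE; limma adjusted p = 0.00111), while in wild type mice the change was 0.15 ± 0.11 (adjusted p = 0.363). The difference between those effects was 0.45 ± 0.15, with a 95% interval of 0.13 to 0.76. It had the lowest adjusted p of the list for that contrast, 0.168, and did not pass. Hpd, the dioxygenase that follows Tat, had 13.43 ± 0.09 on restriction against 13.29 ± 0.08 in progeroid mice (adjusted p = 0.123) and rose 1.15-fold in wild type mice (13.52 ± 0.05 against 13.32 ± 0.06; adjusted p = 0.0174). Hgd and Fah, the later enzymes of tyrosine breakdown, had differences between -0.08 and 0.13, none of which passed; a dimmer Hgd probe set rose by 0.75 on restriction in wild type mice.

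**Figure D3:**
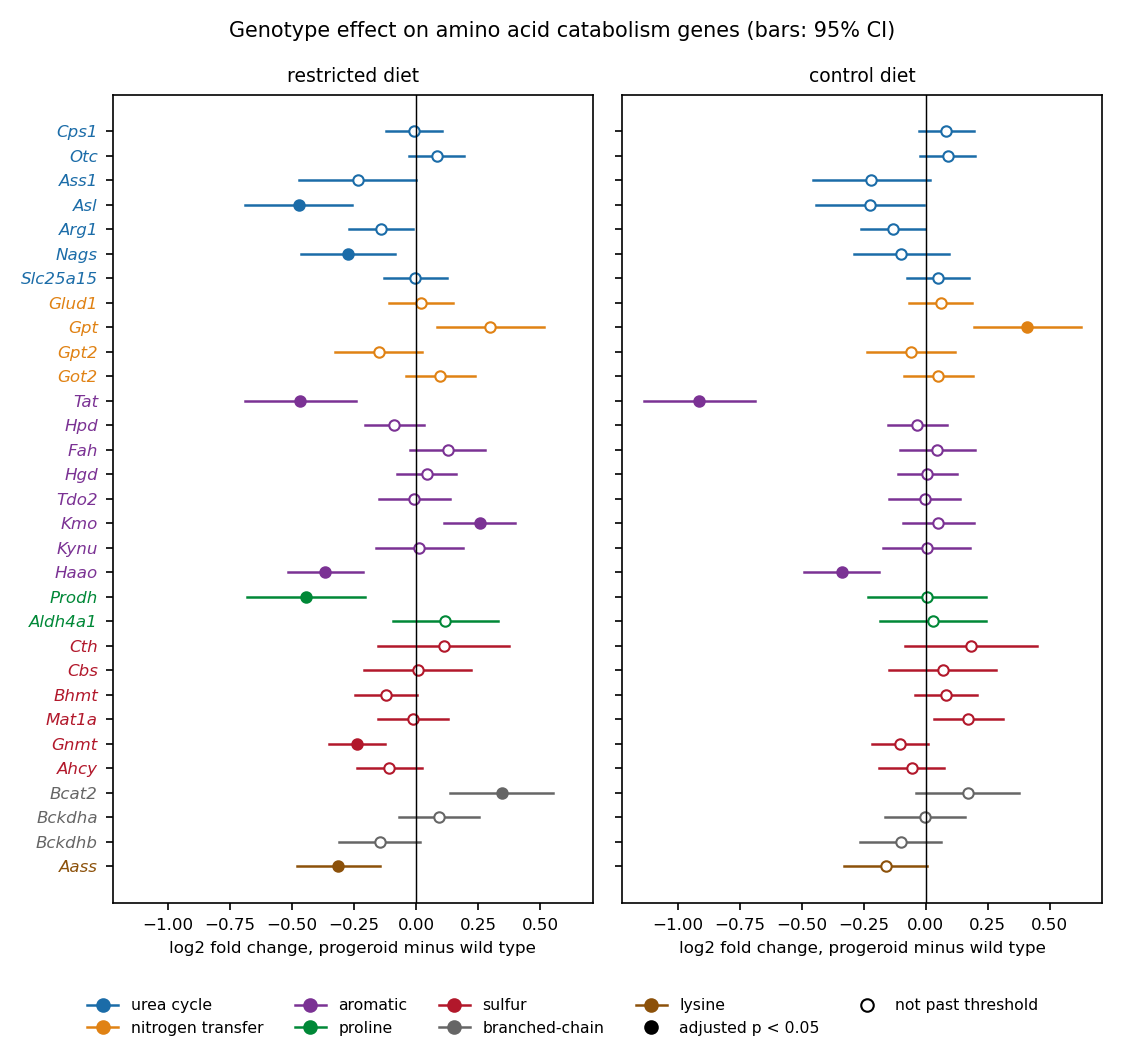
Log2 fold change between genotypes (progeroid minus wild type) of the 31 genes on restricted food, left, and on the control diet, right, with 95% confidence intervals; filled points passed the test. Tat and Haao lie to the left in both panels, whereas Asl, Nags, Prodh, Gnmt and Aass are filled to the left on restricted food only. Kmo and Bcat2 are filled to the right on restricted food only, and Gpt to the right on the control diet only.

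Of the listed branched-chain and lysine genes the largest change was 0.38, that of Aass on restriction in wild type mice. Bcat2, the mitochondrial branched-chain aminotransferase, which textbooks place mainly outside the liver, was dim on these arrays at 4.36 ± 0.12 in restricted and 4.03 ± 0.13 in control-diet progeroid mice, and at 4.02 ± 0.25 and 3.87 ± 0.11 in the same diet groups of wild type mice. Its rise in progeroid mice (0.33 ± 0.10 SE; limma adjusted p = 0.0366) was lost without any 1 of progeroid animals 321, 323, 325, 327, 362, 365, 366 and 369, where the adjusted p lay between 0.0515 and 0.101. Its excess over wild type mice on restricted food (0.34 ± 0.10; adjusted p = 0.0192) was lost without progeroid animal 365 or wild type animal 424 (adjusted p = 0.0578 and 0.0560).

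Bckdha and Bckdhb encode the subunits of the dehydrogenase that commits branched-chain keto acids to oxidation. Bckdha rose 1.18-fold in progeroid mice (10.72 ± 0.05 against 10.48 ± 0.18 on the control diet; limma adjusted p = 0.0476), and 15 of the 20 fits that left out 1 animal lost this call, with adjusted p up to 0.133; it was kept without progeroid animal 325 or 326 or wild type animal 421, 422 or 423. Bckdhb rose 1.21-fold in wild type mice (11.01 ± 0.13 against 10.73 ± 0.07; adjusted p = 0.0145); without wild type animal 423 the adjusted p was 0.0503. In progeroid mice Bckdhb had 0.23 ± 0.08 (adjusted p = 0.0625), and the 95% interval of the difference between the diet effects ran from -0.28 to 0.18.

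Aass, whose window held TGACG as did 17.8% of all windows, carries out the first steps of lysine breakdown. It had 11.75 ± 0.15 on restriction against 11.52 ± 0.16 in progeroid mice (0.23 ± 0.08 SE; limma adjusted p = 0.0703), and it rose 1.30-fold in wild type mice (12.06 ± 0.10 against 11.68 ± 0.07; adjusted p = 0.00169). On restricted food it was 1.24-fold lower in progeroid than in wild type mice (adjusted p = 0.00962).

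The 11 genes that passed in no comparison were Otc, Slc25a15, Glud1, Got2, Fah, Hgd, Tdo2, Aldh4a1, Cth, Cbs and Bhmt. On restriction their changes ran from -0.20 (Cbs) to 0.27 (Cth) in progeroid mice and from -0.14 (Otc) to 0.34 (Cth) in wild type mice. Between genotypes they ran from -0.12 (Bhmt) to 0.13 (Fah) on restricted food and from -0.00 (Tdo2) to 0.18 (Cth) on the control diet.

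Other enzymes of the same pathways moved in both directions. Of 62 measured enzymes outside the list, out of 81, restriction raised 8 and lowered 4 in progeroid mice, against 6.94% and 5.07% of all genes. In wild type mice it raised 12 and lowered 12, against 9.92% and 12.6%. Between genotypes 10 were higher and 11 lower in progeroid mice on restricted food, against 11.8% and 5.44% of all genes, and 7 were higher and 6 lower on the control diet, against 6.7% and 4.32%. The same shares of all genes are the background for the smaller lists that follow. Kyat1, a kynurenine aminotransferase, fell on restriction by 0.71 ± 0.10 in progeroid mice (limma adjusted p = 8.02e-05) and by 1.04 ± 0.10 in wild type mice (adjusted p = 2.23e-07), next to the falls of Kmo and Kynu. Gch1, which starts the synthesis of the cofactor of phenylalanine hydroxylase, rose by 0.84 ± 0.15 and by 0.47 ± 0.15 in progeroid and wild type mice.

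Beyond Mat1a, Mat2b, a subunit of the other methionine adenosyltransferase, rose on restriction by 0.50 in progeroid mice and by 0.59 in wild type mice. Csad, which makes the precursor of taurine from cysteine sulfinate, was 2.83-fold lower in progeroid mice on the control diet (7.57 ± 0.14 against 9.07 ± 0.65, limma adjusted p = 0.000168). It fell on restriction by 1.14 in wild type mice. Of 12 measured sulfur enzymes outside the list 0 were higher and 4 lower in progeroid mice on restricted food (11.8% and 5.44% of all genes), and 0 higher and 3 lower on the control diet (6.7% and 4.32%).

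Of 16 further branched-chain enzymes restriction raised 1 and lowered 1 in progeroid mice, which is close to the background of 6.94% and 5.07%, and raised 1 and lowered 4 in wild type mice, against 9.92% and 12.6%. Acadsb, an acyl-CoA dehydrogenase of isoleucine breakdown, fell by 0.37 in progeroid mice and by 0.67 in wild type mice. Pcca, a subunit of propionyl-CoA carboxylase, was lower in progeroid mice by 0.53 on restricted food and by 0.35 on the control diet.

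Crym, a ketimine reductase of lysine metabolism that also binds thyroid hormone, had a change of 0.38 ± 0.13 on restriction in progeroid mice (limma adjusted p = 0.0683) and rose by 1.29 ± 0.13 in wild type mice (adjusted p = 8.1e-07). Its difference between the diet effects passed (-0.91 ± 0.19; adjusted p = 0.0201). Gcdh, glutaryl-CoA dehydrogenase, rose by 0.35 in progeroid mice and was 0.32 higher in progeroid than in wild type mice on restricted food.

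Among smaller groups, Asrgl1, an asparaginase, rose on restriction by 0.65 in progeroid mice and by 0.66 in wild type mice. Amdhd1, an enzyme of histidine breakdown, was lower in progeroid mice on the control diet (-0.54 ± 0.12 SE; limma adjusted p = 0.00666). Agxt2, an alanine-glyoxylate aminotransferase of mitochondria, was higher in progeroid mice on both diets, by 0.39 on restricted food and by 0.60 on the control diet. Pycr3 and Prodh2, which make proline and break down hydroxyproline, fell on restriction in wild type mice by 0.60 and by 0.38.

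Of 11 amino acid transporters, 5 rose and 0 fell on restriction in progeroid mice, against 6.94% and 5.07% of all genes. In wild type mice 2 rose and 0 fell, against 9.92% and 12.6%, a count too small to set apart from the background. Slc43a1, a carrier of large neutral amino acids, rose by 0.90 ± 0.18 in progeroid mice (7.14 ± 0.27 against 6.24 ± 0.26; limma adjusted p = 0.00296) and by 1.40 ± 0.18 in wild type mice (6.56 ± 0.45 against 5.16 ± 0.25; adjusted p = 1.56e-05). Slc16a10, a carrier of aromatic amino acids, rose by 0.88 ± 0.19 in progeroid mice and by 1.57 ± 0.19 in wild type mice.

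Of 13 measured regulators known to act on these enzymes, 3 rose and 0 fell on restriction in progeroid mice, and 0 rose and 2 fell in wild type mice. Between genotypes 3 were higher and 3 lower in progeroid mice on restricted food, and 1 was higher and 3 lower on the control diet. Hnf4a, the hepatocyte nuclear factor, was lower in progeroid mice on both diets, at 11.78 ± 0.05 against 12.05 ± 0.13 on restricted food (-0.27 ± 0.07 SE; limma adjusted p = 0.0147) and at 11.75 ± 0.07 against 12.12 ± 0.16 on the control diet (-0.37 ± 0.07; adjusted p = 0.00226). Klf15, a factor known to induce amino acid catabolism in fasting, was lower in progeroid mice on the control diet (10.05 ± 0.29 against 10.62 ± 0.38; adjusted p = 0.0237) and rose on restriction in progeroid mice (10.70 ± 0.24 against 10.05 ± 0.29; adjusted p = 0.0112). Cebpb was lower in progeroid mice on the control diet (10.90 ± 0.32 against 11.56 ± 0.40; adjusted p = 0.0146) and had 0.50 ± 0.17 on restriction in progeroid mice (adjusted p = 0.0632). The means of Klf15 and Cebpb were lowest in control-diet progeroid mice. Listed genes whose mean was lowest there were Tat, Asl, Ass1, Arg1, Nags, Gpt2, Hpd, Tdo2, Gnmt, Ahcy, Bckdha, Bckdhb and Aass. A link between these factors and the listed genes was not tested. The differences between the diet effects of Klf15 and Cebpb, 0.73 ± 0.23 and 0.72 ± 0.24, did not pass (limma adjusted p = 0.122 and 0.166).

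Creb3l3, a membrane-bound factor of the fasted liver, was set apart by restricted wild type mice. It had 10.38 ± 0.15 on restriction against 10.41 ± 0.26 in progeroid mice (-0.02 ± 0.12 SE; limma adjusted p = 0.932), and it fell in wild type mice, at 9.54 ± 0.18 against 10.65 ± 0.15 (-1.11 ± 0.12; adjusted p = 9.36e-07). The difference between these diet effects passed, at 1.09 ± 0.16 (adjusted p = 0.00335). Fgf21, a fasting hormone of the liver, fell in wild type mice as well (-1.45 ± 0.32; adjusted p = 0.00243).

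Trib3, a pseudokinase of the amino acid response, was higher in progeroid mice by 1.77 ± 0.28 on restricted food and by 0.96 ± 0.28 on the control diet, and rose on restriction in progeroid mice by 1.31 ± 0.28 (limma adjusted p = 0.00425). Ddit4, an inhibitor of mTORC1 signalling, rose on restriction in progeroid mice by 1.74 ± 0.43 (adjusted p = 0.0111), with a spread of 7.09 to 10.10 in the restricted group. Atf4, the factor at the head of the amino acid response, was lower in progeroid mice on restricted food (-0.46 ± 0.13; adjusted p = 0.0140), as was Nr3c1, the glucocorticoid receptor (-0.21 ± 0.07; adjusted p = 0.0385), whereas Nupr1, a stress-induced cofactor, was higher there (0.44 ± 0.13; adjusted p = 0.0233). Cebpa, the glucagon receptor gene Gcgr and Foxo1 passed in no comparison, and Ppargc1a was not analysed here.

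**Figure D4:**
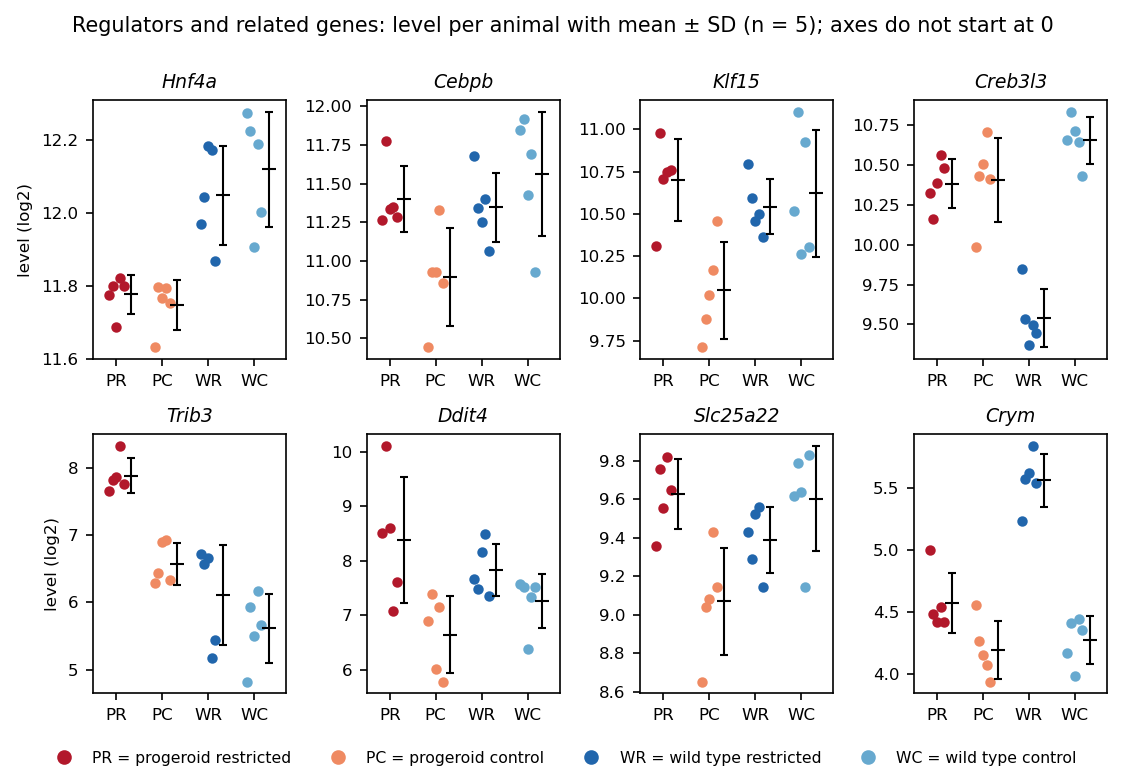
Log2 level per animal of regulators and related genes in the 4 groups of 5, with mean ± SD; axes do not start at 0. Hnf4a is lower in progeroid mice on both diets, Klf15 and Cebpb are lowest in control-diet progeroid mice, Creb3l3 is low in restricted wild type mice, and Crym is high there.

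Markers of some other liver cells were higher in progeroid mice. Of 10 Kupffer cell markers 8 were higher in progeroid mice on restricted food and 2 on the control diet; their mean level ran from 8.06 to 8.86 in restricted progeroid mice against 7.24 to 7.82 in restricted wild type mice, and from 7.95 to 8.63 against 7.72 to 8.16 on the control diet. Of 5 neutrophil and monocyte markers 3 were higher on both diets, with means of 5.29 to 5.58 against 4.52 to 4.92 on restricted food and 5.37 to 5.51 against 4.07 to 4.42 on the control diet. Of 9 stellate cell markers 3 were higher on both diets. Their means were 6.97 to 7.31 against 6.61 to 7.16 on restricted food and 7.17 to 7.27 against 6.78 to 7.05 on the control diet. Of 6 endothelial markers 1 was higher on restricted food and 0 on the control diet, and 0 of 5 cholangiocyte and 0 of 4 lymphocyte markers passed on either diet. The cholangiocyte mean differed between genotypes by 0.02 on restricted food and by 0.14 on the control diet, and the pancreas mean by 0.35 and by 0.06. The erythroid mean differed by -0.07 and by 0.24, and the adipocyte mean by -0.06 and by -0.11, in the same order of diets. The mean of periportal hepatocyte markers, Cps1 and Arg1 among them, differed between genotypes by -0.08 on restricted food and by -0.11 on the control diet. That of pericentral markers differed by 0.16 and by -0.01. Means that did not overlap between groups had the smallest exact permutation p, 0.00794, and no marker mean passed after adjustment over the 56 comparisons (lowest adjusted p = 0.0556). The part of these shifts in the genotype effects was not tested, neither for the lower genes (Asl, Nags, Tat, Haao, Prodh, Gnmt and Aass) nor for the higher ones (Kmo, Bcat2 and Gpt).

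With diet, 1 of 10 Kupffer markers rose in progeroid mice and 3 fell in wild type mice. The neutrophil and monocyte mean was 4.52 to 4.92 in restricted wild type mice against 4.07 to 4.42 in control-diet wild type mice, and 5.29 to 5.58 against 5.37 to 5.51 in progeroid mice. The mean of 4 pancreas markers was 4.96 to 5.26 in restricted against 5.42 to 5.58 in control-diet wild type mice. The lymphocyte mean differed with diet by -0.13 in progeroid mice and by -0.15 in wild type mice. Of 6 periportal markers 1 rose in progeroid mice, and 4 rose and 1 fell in wild type mice. This list shares Cps1 and Arg1 with the genes described here; of its other 4 genes 0 passed in progeroid mice, and 2 rose and 1 fell in wild type mice. The periportal mean, with Cps1 and Arg1 included, was 10.99 to 11.08 in restricted against 10.82 to 10.98 in control-diet progeroid mice. In wild type mice it was 11.07 to 11.21 on restriction against 10.94 to 11.11. The mean of pericentral hepatocyte markers differed with diet by -0.05 in progeroid mice and by -0.22 in wild type mice. The mean over erythroid markers lay between 6.63 and 7.44 in restricted progeroid mice against 7.44 and 8.14 in control-diet progeroid mice. Their part in the diet effects was not tested.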

How the data were processed

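Liver RNA of 20 mice was measured on 1 Affymetrix array per animal. Per the submitters' processing notes RMA was used; the deposited values are on a log2 scale. The RMA version and the probe set definition used are not given here by any source. Since RMA forces 1 distribution on all arrays, it would hide a shift of all genes, and it understates the folds of dim probe sets.

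Gene names came from the annotation of the array; probe sets with several symbols or none (551 and 15588) and 104 control probe sets were not used for genes. Of 28898 with 1 symbol, 28689 were found in RefSeq by Entrez ID. Each of 17097 genes was read from its probe set with the highest mean, with no filter on dim genes; of the 31 listed genes, 1 (Bcat2) had a mean under 5.

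With 1 coefficient for each group, the 20 arrays were fitted together in limma 3.58.1 (lmFit and eBayes, 16 residual degrees of freedom) in R 4.3.3. The 5 contrasts were genotype (progeroid minus wild type) within either diet, diet (restricted minus control) within either genotype, and the interaction (the progeroid diet effect minus that of wild type mice), each adjusted by Benjamini-Hochberg over all genes. The fit was tested on simulated data. Mean marker levels were tested by exact permutation (252 assignments of the animals, smallest possible p 0.00794). The number of arrays limits the precision. No scan date or slide was in the files, so batches could not be checked.

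The genes and lists were chosen with earlier results of these data known. Genes outside the list are named where they had the 1 or 2 smallest adjusted p of their list, or are regulators. Alternatives covered centring, the choice of probe set, a filter on dim genes, the arrays in the fit, the variance model, array weights, RNA integrity and leaving out each animal.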

Additional observations from a re-analysis of the deposited data

Results flagged for a closer look

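Animals that stood apart from the other 4 of their group were found in 6 of 124 pairs of gene and group, where chance gives about 1 in 20. Tdo2 was low at 13.15 in restricted progeroid animal 362. Prodh was low at 11.25 in restricted wild type animal 424, which still lay above all control-diet animals. Cth was high at 12.42 in control-diet progeroid animal 327 and low at 11.46 in control-diet wild type animal 401. Cbs was low at 10.63 in restricted wild type animal 422, and Bckdhb was high at 11.23 in restricted wild type animal 423.

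The diet effects differed between the genotypes in 3 of 117 genes tested, none of them in the list itself. Of all genes 1.4% had such a difference, and a count of 3 is too small to set apart from that share. For Creb3l3 the difference (progeroid minus wild type) was 1.09, with diet effects of -0.02 in progeroid mice and -1.11 in wild type mice (limma adjusted p = 0.00335). For Crym it was -0.91, with 0.38 in progeroid mice and 1.29 in wild type mice (adjusted p = 0.0201). For Slc25a22, a glutamate carrier of mitochondria, it was 0.77, with 0.56 in progeroid mice and -0.21 in wild type mice (adjusted p = 0.0497).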

How the results depend on the processing

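No paired analysis was possible because the groups share no animal numbers. Over 9 alternatives and 20 fits that each left out 1 animal, 31 of 40 called gene results kept their call throughout, 33 of 40 did so in the fits without 1 animal, and 0 changed sign. The calls lost were those of Bcat2, Bckdha, Bckdhb in wild type mice, Cps1, Gpt, Gpt2 in progeroid mice and Nags. With only the groups of a contrast fitted, the adjusted p of limma was 0.0501 for Gpt and 0.0537 for Gpt2 in progeroid mice on restriction. Of 115 uncalled results 13 were called under at least 1 alternative; the restricted genotype difference of Gpt was among these. Uncalled values changed sign in 167 of 3288 cases. Called under the other probe set, Hgd rose on restriction in wild type mice by 0.37 (mean of probe sets) and Otc was lower in restricted progeroid mice (-0.35, suffixed probe sets left out), against -0.00 and 0.08.

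Without suffixed probe sets, 0 genes of the list were higher and 1 lower in the genotype effect on the control diet, 1 was higher on restricted food, and the median there was -0.089. The control-diet count of higher genes was also 0 with only the groups of the contrast and with Gapdh as covariate. With Gapdh as covariate, 473 of all genes were lower in the control-diet genotype effect, and 102 and 35 passed upwards and downwards for the difference of diet effects; with array weights 110 passed downwards. Counted over every probe set, the calls upwards and downwards were 3182 and 1992 for genotype on restricted food, 1793 and 1334 for genotype on the control diet, 2165 and 1550 for diet in progeroid mice and 4449 and 4095 for diet in wild type mice, and 122 downwards for the difference; more features are tested there.

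Leaving out 1 animal, the genes of the list that rose numbered 8 to 12 for diet in progeroid mice, 11 to 14 for diet in wild type mice, 1 (without progeroid animal 365 or wild type animal 424) to 3 for genotype on restricted food and 1 to 2 (without progeroid animal 323 or wild type animal 405) on the control diet. The falls numbered 6 to 7 for genotype on restricted food, where the median ran from -0.069 (without progeroid animal 368) to 0.0056 (without progeroid animal 362). Over all genes, falls in progeroid mice on restriction ran from 561 (without progeroid animal 323) to 920. The difference of diet effects gave 77 calls upwards and 26 downwards without wild type animal 423, and 364 and 126 without wild type animal 421. The count of listed genes with a difference of diet effects was 0 in every fit.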
